A study of Rattus norvegicus with 24 samples.

Results

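The genes described here are Ucp3, Ucp2, Pdk4, Angptl4, Cpt1a, Cpt1b and Plin2, which muscle uses to move between glucose and fatty acids as fuel. They are 7 of the 21067 genes in the deposited table of quadriceps muscle, taken by gene symbol, and each symbol stood on 1 row of the table. They were chosen by earlier readings of these data: the known values behind the choice are the lower Ucp3 of catgut group 2 against the treadmill group and the lower Angptl4 in the comparisons with the treadmill group. Levels in those comparisons are therefore given as a description with no test of the 7 genes. Whole transcriptomes of 24 Sprague-Dawley rats, which entered at 6 weeks of age, were sequenced in 4 groups of 6 rats, each rat giving 1 library. Control rats were fed normally and were not put through treadmill training. Treadmill rats followed 7 weeks of increasing weekday running and then ran to exhaustion. Rats of catgut group 1 had absorbable thread embedded at the acupoints Qian Shen, Yang Wa, Han Gou, Xie Qi, Bai Hui and Qiang Feng, rested for a week, and then took the same training and exhaustive run. Rats of catgut group 2 had the same points plus Fei Shu. Every catgut rat thus also trained, no group was embedded without training or trained with a sham embedding, and several of the points lie in the hind limb, near the sampled muscle. Male and female rats were assigned to each group in equal numbers, but the labels do not give the sex of a library.

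In working or fasting muscle, fatty acids enter mitochondria through carnitine palmitoyltransferase 1, and their oxidation spares glucose. Pyruvate dehydrogenase kinase 4 shuts the entry of glucose carbon into the citrate cycle, angiopoietin-like 4 restrains lipoprotein lipase at the vessel wall, perilipin 2 coats lipid droplets, and uncoupling protein 3 is a mitochondrial inner membrane carrier found mostly in skeletal muscle. Most of these genes are known targets of the peroxisome proliferator-activated receptors (PPARs), which bind fatty acids, and their mRNA is known to rise with fasting and endurance exercise.

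The total count per library was 45945938 to 78278080. All values below are FPKM, the authors' fragment numbers scaled to the length of the transcript and to all fragments mapped, unless a fitted log2 fold change is named. The tissue label was met by the data: the 7 skeletal muscle markers listed in the table summed to 62360 to 85820 FPKM per library, although the extraction text of the labels speaks of adipose tissue. The 7 adipocyte markers summed to 318.5 to 703.5 FPKM. Of 9 liver markers, 7 had a median under 0.1 FPKM, yet Alb, the albumin of liver, reached 134.8 FPKM in control replicate 2 and 226.1 in treadmill replicate 3 and also passed 1 FPKM in treadmill replicates 2, 5 and 6. Y-linked transcripts (Eif2s3y over 1 FPKM) were present in replicates 4, 5 and 6 of the control, treadmill and catgut 1 groups and in replicates 1 and 5 of catgut group 2. Catgut group 2 thus had them in 2 of 6 libraries, although the paper states equal numbers of both sexes in each group. In bulk muscle, fewer cells of a type and less RNA per cell cannot be told apart.

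In the coordinates of the table, whose genome build is not given in the sources used here, Ucp3 (chromosome 1, 165482155 to 165496206) lies 10154 bases before Ucp2 (chromosome 1, 165506361 to 165512744) on the same plus strand. Pdk4 lies on chromosome 4 (30546664 to 30556814, minus strand), Angptl4 on chromosome 7 (18627808 to 18634079, minus strand), Cpt1a on chromosome 1 (218569510 to 218629678, plus strand), Cpt1b on chromosome 7 (130395194 to 130405347, minus strand) and Plin2 on chromosome 5 (104984414 to 105010857, minus strand). Cpt1b and its neighbour Chkb overlap by 516 bases, so the counting could split reads between them and the level of Cpt1b is less certain than the others.

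Promoter sequences from RefSeq on the GRCr8 build, a stretch of 300 bases that runs over the annotated start, matched 6 of the 7 genes, all but Cpt1b. The promoters of Ucp3, Pdk4 and Angptl4 are shown because the levels of these genes varied together most closely, as described further on. Capitals mark the hexamer AGGTCA, the core to which nuclear receptors such as PPARs bind, and the TATA box TATAAA, each searched on both strands. The Ucp3 window is chr1:164227660-164227959 on the plus strand, the Pdk4 window chr4:34568280-34568579 on the minus strand and the Angptl4 window chr7:15258632-15258931 on the minus strand, each written 5′ to 3′ along the gene.
Ucp3: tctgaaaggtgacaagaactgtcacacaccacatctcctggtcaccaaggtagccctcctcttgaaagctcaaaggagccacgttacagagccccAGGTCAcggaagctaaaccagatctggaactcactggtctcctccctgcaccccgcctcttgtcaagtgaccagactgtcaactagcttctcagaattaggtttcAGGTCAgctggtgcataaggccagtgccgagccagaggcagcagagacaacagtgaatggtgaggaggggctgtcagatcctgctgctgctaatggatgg
Pdk4: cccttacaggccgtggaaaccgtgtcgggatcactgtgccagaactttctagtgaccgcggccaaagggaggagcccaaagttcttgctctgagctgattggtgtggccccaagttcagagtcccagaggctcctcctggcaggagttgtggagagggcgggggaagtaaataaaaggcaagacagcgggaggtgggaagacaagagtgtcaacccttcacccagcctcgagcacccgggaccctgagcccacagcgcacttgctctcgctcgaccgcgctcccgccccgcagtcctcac
Angptl4: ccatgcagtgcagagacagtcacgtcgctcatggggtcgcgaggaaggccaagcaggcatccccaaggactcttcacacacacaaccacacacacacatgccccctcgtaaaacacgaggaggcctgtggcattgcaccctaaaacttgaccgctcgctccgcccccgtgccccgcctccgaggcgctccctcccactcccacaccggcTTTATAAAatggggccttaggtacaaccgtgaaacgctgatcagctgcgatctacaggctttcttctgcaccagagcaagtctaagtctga
The Ucp3 window held AGGTCA at 2 places, the first letters 155 and 50 bases before the start, while 16.2% of the 33469 promoters of the table held it at least once. The Angptl4 window held 2 overlapping matches of TATAAA, 1 on each strand, which begin 41 and 39 bases before the start, and 14.2% of all promoters held that motif. In the Pdk4 window neither was found, nor was the E-box CACGTG, the forkhead motif GTAAACA or the glucocorticoid receptor hexamer AGAACA in any of the 3 windows. The E-box, which 6.42% of all promoters held, was found 67 bases before the start in 1 of the 2 windows listed for Plin2. The forkhead and glucocorticoid receptor motifs were held by 3.78% and 20.7% of promoters. No window of the 6 genes held the direct repeat of AGGTCA with a 1-base gap, which only 0.0538% of promoters held. These are letter matches in short windows and do not measure binding.

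Per length, Pdk4 was the most abundant of the 7 genes, with a mean of 368.5 FPKM over the 24 libraries. Cpt1b followed at 97.7 and Ucp3 at 82.4 FPKM. Plin2 (13.2 FPKM), Ucp2 (10.2 FPKM), Angptl4 (9.15 FPKM) and Cpt1a (3.51 FPKM) were lower, the last being the liver-type isoform of carnitine palmitoyltransferase 1. The lowest count of any of the 7 genes in any library was 223, for Angptl4 in catgut 1 replicate 4, so each was detected throughout.

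Ucp3 was high in the treadmill group and spread widely among the controls. In control replicates 1 to 6 its level was 286, 212, 69.5, 25.7, 16.5 and 42.2 FPKM (mean 109 ± 113 FPKM, SD, n = 6), a 17.4-fold range. In the treadmill group it was 231, 98.2, 179, 130, 97.0 and 89.0 FPKM (137 ± 56.7 FPKM). Control replicates 1 and 2 thus reached the range of the trained rats without training, and the other 4 controls lay below every treadmill library. In catgut group 1 the level was 95.3, 46.4, 66.4, 18.0, 39.5 and 20.1 FPKM (47.6 ± 29.4 FPKM), and in catgut group 2 it was 33.8, 43.8, 39.5, 33.1, 36.9 and 29.5 FPKM (36.1 ± 5.1 FPKM). All 6 libraries of catgut group 2 lay below the lowest treadmill library, and in catgut group 1 this held for 5 of 6, all but replicate 1. The order of the medians was treadmill (114 FPKM), control (55.8 FPKM), catgut group 1 (42.9 FPKM) and catgut group 2 (35.3 FPKM), and the ranges of each pair of neighbours in this order overlapped.

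The spread of Ucp3 within a group differed as much as its level. The coefficient of variation was 104% among controls and 61.8% in catgut group 1, higher than for 98.2% of 10305 and 96.6% of 10297 genes with a mean of at least 1 FPKM in the group. It was 41.3% in the treadmill group, higher than for 87.5% of genes, and 14.1% in catgut group 2, higher than for only 35.6%. The median gene varied by 16.2% among controls and by 17.7% in catgut group 2. These percentiles are a description and were not tested.

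Ucp2, the neighbour of Ucp3 and a broadly expressed carrier of the same family, ran from 4.87 to 15.5 FPKM among controls around a median of 6.65. With training alone it ran from 4.43 to 24.5 FPKM (median 11), in catgut group 1 from 4.74 to 8.88 (median 7.06) and in catgut group 2 from 4.98 to 36.0 FPKM (median 8.51). Its groups overlapped throughout, and catgut 2 replicate 2 alone reached 36.0 FPKM, where the next highest library of that group had 14.1. The ratio of Ucp3 to Ucp2 had a median of 9.67 among controls, 10.9 in the treadmill group, 5.70 in catgut group 1 and 4.26 in catgut group 2.

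Pdk4 and Angptl4 followed the same libraries as Ucp3. Pdk4 had 728, 835, 428, 198, 107 and 350 FPKM in control replicates 1 to 6, and 681, 342, 681, 345, 326 and 186 FPKM in the treadmill group. It had 467, 343, 298, 162, 389 and 234 FPKM in catgut group 1 and 361, 248, 301, 254, 266 and 314 FPKM in catgut group 2. All ranges overlapped, and the 4 highest libraries of the series were replicates 1 and 2 of the controls and 1 and 3 of the treadmill group, as for Ucp3. The highest library had 7.80 times the lowest among controls, 3.66 times in the treadmill group, 2.89 times in catgut group 1 and 1.46 times in catgut group 2.

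Angptl4 was low in all groups, with the same 4 libraries on top. It had 37.98, 24.1, 7.32, 4.24, 1.74 and 6.17 FPKM in the controls and 20.1, 5.35, 25.4, 11.01, 4.75 and 3.56 FPKM in the treadmill group. Catgut group 1 had 13.1, 6.27, 5.06, 2.50, 3.19 and 4.12 FPKM, and catgut group 2 had 5.65, 5.12, 7.10, 2.90, 4.86 and 8.17 FPKM. The highest catgut library had 13.1 FPKM, whereas 2 control and 2 treadmill libraries lay at 20.1 FPKM or more.

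The 2 isoforms of carnitine palmitoyltransferase 1 were steadier. Cpt1b, the muscle isoform, had 78.02 to 104 FPKM among controls around a median of 89.3, and 62.6 to 106 FPKM with training alone, around 99.1. It had 87.2 to 122 FPKM in catgut group 1, while catgut group 2 had 79.9 to 125, with medians of 98.6 and 106. Its coefficient of variation was 10.5% to 18.1%, below the median gene in each group. Cpt1a had 2.74 to 4.45 FPKM among controls around a median of 2.95, and 2.40 to 3.70 FPKM with training alone, around 3.003. It had 2.52 to 4.18 FPKM in catgut group 1, while catgut group 2 had 3.57 to 5.31, with medians of 3.43 and 4.21. In catgut group 2, 4 of 6 libraries lay above every treadmill library and 3 above every control library. The ratio of Cpt1b to Cpt1a had a median of 30.7, 32.2, 28.9 and 22.9, with the control group given first, then treadmill, catgut 1 and catgut 2.

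Plin2, which marks lipid droplets, had 8.05 to 23.5 FPKM among controls around a median of 10.5, and 10.6 to 20.3 FPKM with training alone, around 14.3. It had 8.60 to 14.9 FPKM in catgut group 1, while catgut group 2 had 9.88 to 19.7, with medians of 11.8 and 12.9. All 4 ranges overlapped. Control replicate 2 held the 23.5 FPKM, and the next highest control had 11.7 FPKM.

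**Figure D1:**
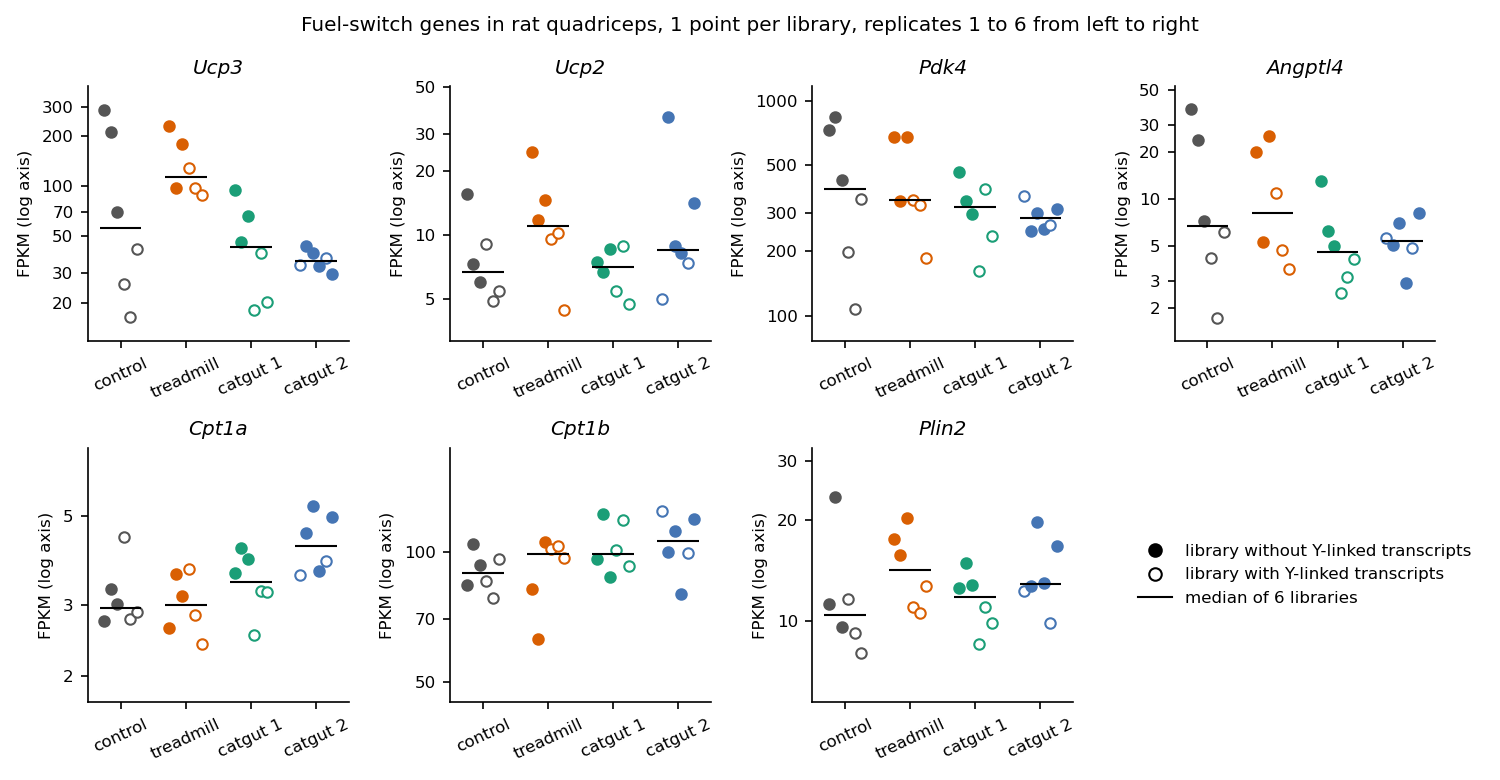
Level of each of the 7 genes in FPKM on log axes, 1 point per library in replicate order within each group, with a line at the group median and open points for libraries with Y-linked transcripts. For Ucp3, control replicates 1 and 2 (286 and 212 FPKM) stand with the treadmill libraries, and the 6 libraries of catgut group 2 lie between 29.5 and 43.8 FPKM.

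Against the treadmill group, the comparison that asks what the embedding added to training, Ucp3 was 0.263 times as high by group means in catgut group 2 and 0.347 times in catgut group 1. The fitted log2 fold changes were -1.97 (SE 0.23) and -1.56 (SE 0.40). Angptl4 had log2 fold changes of -1.08 (SE 0.47) in catgut group 2 and -1.05 (SE 0.54) in catgut group 1, and Pdk4 had -0.56 (SE 0.28) and -0.46 (SE 0.31). With 1 library left out both genes stayed below 0, but under other alternatives of the closing section their signs could change. Angptl4 then ranged from -1.59 to 1.45 in catgut group 2 and from -1.44 to 1.55 in catgut group 1. Pdk4 ranged from -1.05 to 0.876 and from -0.715 to 0.953. Ucp3 stayed below 0 under all of them. Ucp2 had -0.86 (SE 0.29) in catgut group 1 but 0.03 (SE 0.45) in catgut group 2, where replicate 2 stood apart. Cpt1a had 0.47 (SE 0.13) in catgut group 2 and 0.15 (SE 0.12) in catgut group 1, Cpt1b had 0.16 (SE 0.20) and 0.12 (SE 0.17), and Plin2 had -0.09 (SE 0.18) and -0.36 (SE 0.16). Both comparisons share the treadmill libraries. The groups did not overlap for 1 of the 7 genes, Ucp3, in catgut group 2 against treadmill (1.04% of the 14772 genes tested) and for 0 of 7 in catgut group 1 against treadmill (0.413%). Because these contrasts chose the genes, nothing is read from the counts.

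Against the controls, none of the 7 genes passed edgeR's quasi-likelihood test at an adjusted p under 0.05, in the treadmill group or in either catgut group. In treadmill against control, 0 of 7 passed (0.0542% of all genes tested did) and 0 of 7 had an unadjusted p under 0.05 (9.12% of all genes). DESeq2 and limma also called 0. Ucp3 had 0.33 as log2 fold change (95% interval -0.92 to 1.57, adjusted p = 0.907), so a change of either sign lies within its error. Ucp2 had 0.65 (SE 0.36, adjusted p = 0.603), Plin2 0.28 (SE 0.26, adjusted p = 0.763) and Pdk4 -0.06 (SE 0.48, adjusted p = 0.98). For 0 of 7 genes did the groups not overlap (0.447% of all genes).

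Without control replicates 1 and 2, left out after the data were seen, the log2 fold change of Ucp3 between treadmill and control was 1.87 (SE 0.44, adjusted p = 0.16). Control replicates 1 and 2 had the most Ucp3 of their group, so leaving them out had to raise this value. It is a description and no test. These libraries also stood apart in clock genes: Arntl, the core activator of the circadian clock, was 11.4 and 9.26 FPKM in them and 1.11 to 2.32 FPKM in the other 4 controls. Per2, a repressor of the clock that peaks at the opposite phase, was 1.38 and 1.79 FPKM in them and 5.2 to 9.51 FPKM in the others. The treadmill libraries had 3.88 to 11.04 FPKM of Arntl and 1.03 to 2.99 FPKM of Per2. The part of the clock genes in the levels of Ucp3 was not tested by any experiment here, since the labels give no time of sampling.

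In catgut group 1 against control, 0 of 7 genes passed (0.0203% of all genes) and 0 had an unadjusted p under 0.05 (9.84%), and DESeq2 and limma called 0 as well. Ucp3 had -1.23 as log2 fold change (SE 0.69, adjusted p = 0.584) and Angptl4 -1.27 (SE 0.68, adjusted p = 0.567). The groups overlapped for all 7 genes, against 0.393% of all genes whose groups did not. In catgut group 2 against control, 0 of 7 passed (0.508% of all genes) and 2 of 7 had an unadjusted p under 0.05 (16.4% of all genes). These were Cpt1a, with 0.44 as log2 fold change (SE 0.12, unadjusted p = 0.00258, adjusted p = 0.116), and Ucp3, with -1.64 (SE 0.62, unadjusted p = 0.0199, adjusted p = 0.21). DESeq2 called 1, Cpt1a (adjusted p = 0.0164), and limma 0. Over the alternatives, the adjusted p of Cpt1a was 0.0164 to 0.474, and without catgut 2 replicate 4 it was 0.0397. Of all 14772 genes, DESeq2 called 695 and edgeR without catgut 2 replicate 4 called 492, where the main fit called 75. Angptl4 had -1.30 (SE 0.63, adjusted p = 0.332) and Pdk4 -0.62 (SE 0.42, adjusted p = 0.504). The groups did not overlap for 0 of 7 (1.09% of all genes). Without control replicates 1 and 2, the log2 fold change of Ucp3 was -0.09 (SE 0.33, adjusted p = 0.925) in catgut group 2 and 0.32 (SE 0.51, adjusted p = 0.878) in catgut group 1. Leaving out the 2 controls with the most Ucp3 had to raise both values. They show how far the fitted level against control depended on 2 libraries and are no test.

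Between the catgut groups, which differ by the point Fei Shu, 0 of 7 genes passed (0.00677% of all genes) with edgeR, DESeq2 or limma. An unadjusted p under 0.05 was found for 2 of 7 (3.26% of all genes). Ucp2 was higher in catgut group 2 with 0.89 as log2 fold change (SE 0.38, unadjusted p = 0.0367, adjusted p = 1), and so was Cpt1a with 0.32 (SE 0.12, unadjusted p = 0.0178, adjusted p = 1). Ucp3 had -0.41 (95% interval -1.06 to 0.25) and Angptl4 -0.03 (95% interval -0.78 to 0.73). The groups did not overlap for 0 of 7 (0.162% of all genes). These comparisons share libraries with those that chose the genes.

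**Figure D2:**
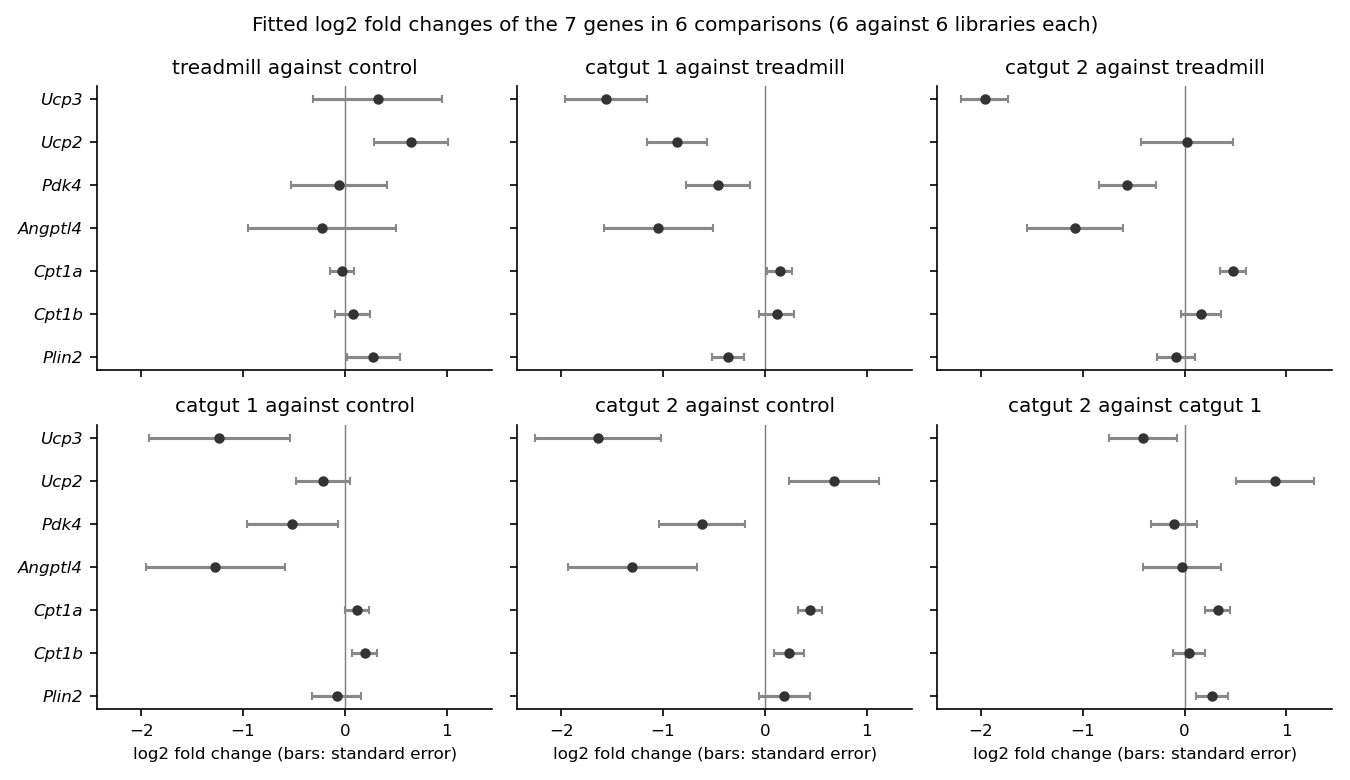
Fitted log2 fold change of each of the 7 genes (horizontal axis, bars: standard error) in 6 comparisons of 6 against 6 libraries. Ucp3 stands at -1.97 in catgut group 2 against treadmill with a narrow bar, and at -1.64 with a wide bar against control, while Cpt1a and Cpt1b lie within 0.47 of 0 in every panel.

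Within groups, after subtracting each group's mean, Ucp3, Pdk4 and Angptl4 varied together. Pearson's r of log2(FPKM + 1) over the 24 libraries was 0.883 for Ucp3 and Pdk4 (permutation p = 3e-05, adjusted over 21 pairs 0.00021) with a Spearman's rho of 0.817 (permutation p = 0.00016). For Ucp3 and Angptl4, r was 0.88 (permutation p = 2e-05, adjusted 0.00021) and rho 0.85 (permutation p = 2e-05), and for Pdk4 and Angptl4 r was 0.894 (permutation p = 3e-05, adjusted 0.00021) and rho 0.856 (permutation p = 4e-05). Without the 2 libraries farthest from the median of the first gene, r stayed at 0.869, 0.826 and 0.855. Without control replicates 1 and 2 it was 0.825, 0.768 and 0.842. Each group mixed libraries with and without Y-linked transcripts, and the permutation took no account of this. Among controls, Pdk4 was 107 to 350 FPKM with such transcripts and 428 to 835 without, and Angptl4 was 1.74 to 6.17 and 7.32 to 37.98. Angptl4 was also separated in catgut group 1, whereas the other ranges of both genes overlapped. The part of this split in the correlations was not tested.

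Group by group, with 6 libraries each and as a description, Ucp3 and Pdk4 had an r of 0.956 among controls, 0.909 in the treadmill group, 0.849 in catgut group 1 and -0.475 in catgut group 2. For Ucp3 and Angptl4 it was 0.989, 0.946, 0.82 and -0.103, and for Pdk4 and Angptl4 it was 0.943, 0.925, 0.728 and 0.586. In catgut group 2 both Ucp3 and Pdk4 spanned a narrow range, 1.49-fold and 1.46-fold. The difference of r between groups was not tested.

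Of the 21 pairs, 8 had an adjusted permutation p under 0.05 by Pearson's r and 11 by Spearman's rho, and 20 of 21 values of r were above 0. Plin2 was correlated with Angptl4 (r = 0.591, adjusted permutation p = 0.0353), Pdk4 (r = 0.575, adjusted permutation p = 0.0439) and Ucp3 (r = 0.536, adjusted permutation p = 0.0477). Without control replicates 1 and 2, these r were 0.547, 0.428 and 0.394, so the relations with Pdk4 and Ucp3 rested in part on those libraries. Ucp2 was correlated with Angptl4 (r = 0.487, adjusted permutation p = 0.0353) and Ucp3 (r = 0.47, adjusted permutation p = 0.00787), and for Ucp3 and Ucp2 r was 0.286 without the 2 farthest libraries, so that relation rested in part on them. Cpt1b had r between -0.142 and 0.282 with the other 6 genes, and none of its adjusted permutation p-values was under 0.05.

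**Figure D3:**
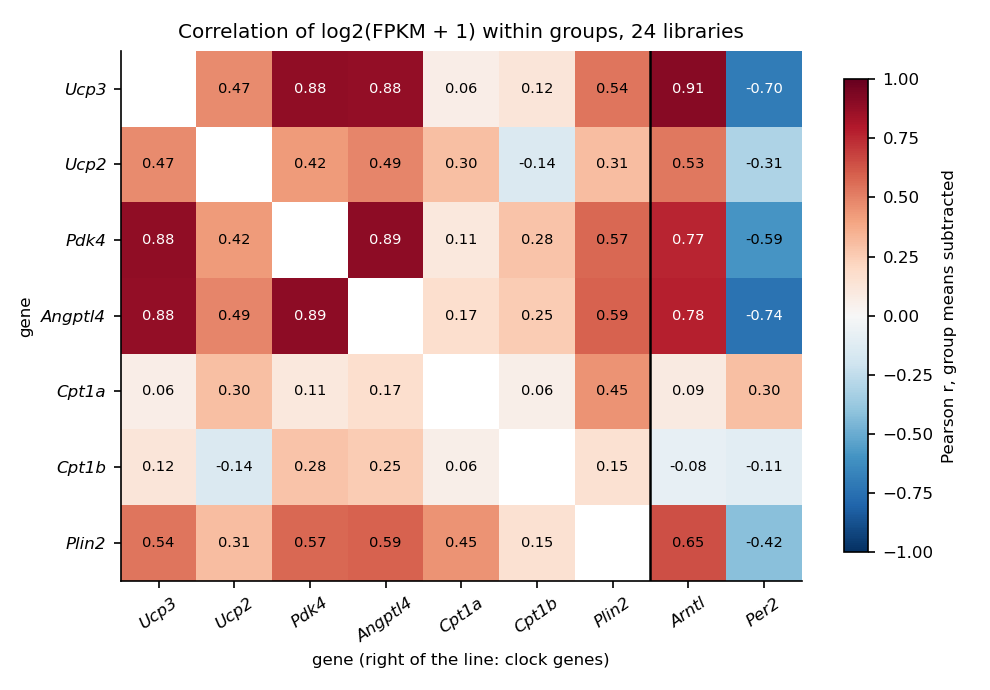
Pearson's r of log2(FPKM + 1) within groups over 24 libraries for each pair of the 7 genes and, right of the line, with the clock genes Arntl and Per2, on a colour scale from -1 (blue) to 1 (red). Ucp3, Pdk4 and Angptl4 form a block of 0.88 to 0.89, and Cpt1a and Cpt1b stay at 0.45 or below with every other gene.

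Of 9386 other genes with a symbol and a mean of at least 1 FPKM, Arntl had the pattern most like that of Ucp3 over the 24 libraries (r = 0.941), followed by Tmem140 (0.893), Alpk2 (0.88), Lrrc30 (0.848) and Sphk2 (0.848). With group means subtracted the order was Arntl (0.91), Tmem140 (0.849), Alpk2 (0.822), Lrrc30 (0.798) and Rab11b (0.792). For Pdk4 the nearest were Alpk2 (0.801), Ulk1 (0.771), Ddit4l2 (0.759), Sesn1 (0.735) and Zfp142 (0.711), and with group means subtracted Alpk2 (0.852), Ddit4l2 (0.775), Lrrc30 (0.772), Ulk1 (0.766) and Arntl (0.765). These are the highest of many values and are given as a description over 24 libraries that share groups.

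Arntl and Per2 were then set beside all 7 genes. Since Arntl was picked here as the nearest of 9386 genes, these values are a description and no p is given. Within groups, Arntl had an r of 0.91 with Ucp3 (rho 0.864), 0.777 with Angptl4, 0.765 with Pdk4, 0.645 with Plin2 and 0.529 with Ucp2. With Cpt1a and Cpt1b it had 0.0896 and -0.0808. Per2 had -0.702 with Ucp3 and -0.738 with Angptl4. Without control replicates 1 and 2, r of Arntl with Ucp3 was 0.778, while that of Per2 with Ucp3 was -0.254, so the second relation rested on those libraries. Group by group, Arntl and Ucp3 had an r of 0.969 among controls, 0.62 in the treadmill group, 0.96 in catgut group 1 and 0.414 in catgut group 2.

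**Figure D4:**
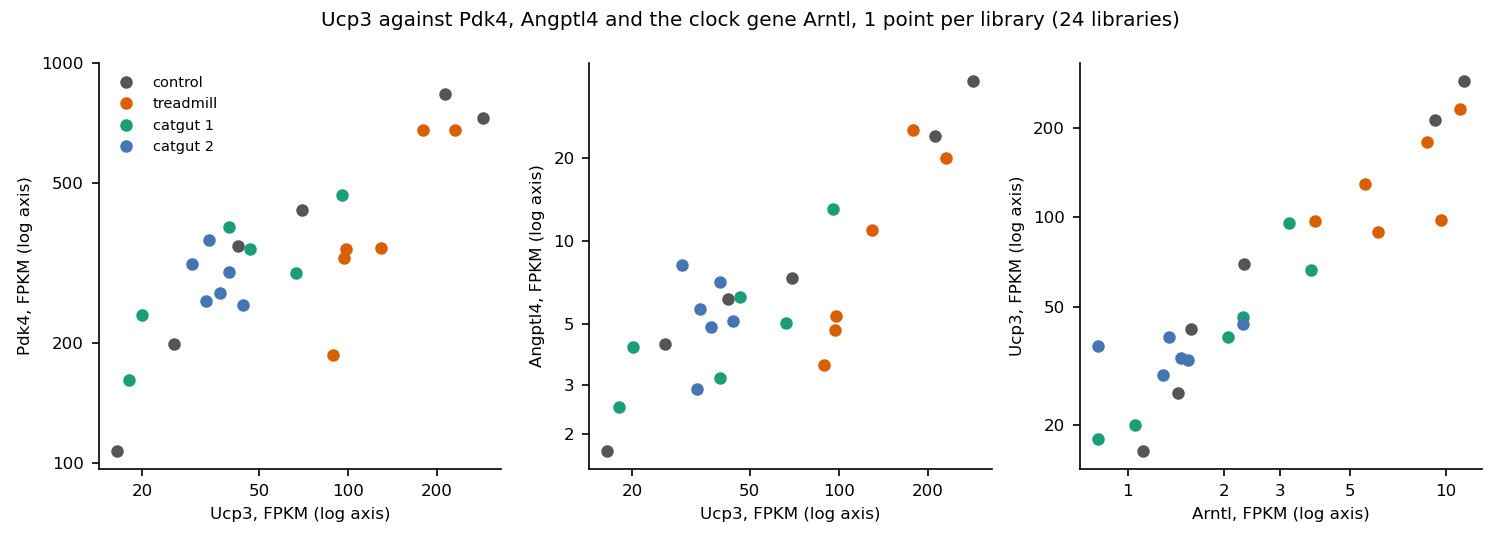
Ucp3 against Pdk4, Ucp3 against Angptl4, and Arntl against Ucp3, in FPKM on log axes, 1 point per library coloured by group (24 libraries). The points run along a rising band in each panel, with control replicates 1 and 2 beside the treadmill libraries at its upper end.

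The clock genes also separated the groups. Arntl was 0.805 to 3.75 FPKM in catgut group 1 and 0.808 to 2.30 FPKM in catgut group 2, below every treadmill library. A clock level, the mean log2 level of Per2, Per3, Dbp and Nr1d1 minus that of Arntl and Npas2, was 0.157 to 2.43 in the treadmill group and 3.03 to 3.95 in the catgut groups, with no overlap. With this level as a covariate, the log2 fold change of Ucp3 against the treadmill group was -0.80 (SE 0.36) in catgut group 2 and -0.09 (SE 0.60) in catgut group 1. Since the clock level and the group separate the same libraries, the clock and the embedding cannot be told apart in this comparison.

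Libraries with Y-linked transcripts had less Ucp3 than those without, with no overlap, among controls and in catgut group 1, and this was not tested. The 3 such libraries had 16.5 to 42.2 FPKM among controls and 18.0 to 39.5 in catgut group 1, where the 3 without had 69.5 to 286 and 46.4 to 95.3 FPKM. In the treadmill group the 3 with had 89.0 to 130 and the 3 without 98.2 to 231 FPKM, and in catgut group 2 the 2 with (33.8 and 36.9 FPKM) lay within the range of the other 4. The same libraries differed in Arntl, which was 1.11 to 1.58 FPKM in the 3 controls with Y-linked transcripts and 2.32 to 11.4 FPKM in the 3 without. With the Y-linked level as a covariate, the log2 fold change of Ucp3 in catgut group 2 against treadmill was -1.98 (SE 0.23) and in catgut group 1 against treadmill -1.65 (SE 0.31), close to the values without it. Without the libraries in which Alb passed 1 FPKM, which left only treadmill replicates 1 and 4 on the treadmill side, they were -2.35 (SE 0.18) and -1.94 (SE 0.53). With the adipocyte level as a covariate, they were -1.99 (SE 0.23) and -1.79 (SE 0.42). That level was the mean log2(FPKM + 1) of Adipoq, Plin1, Cidec and Cfd, not the summed adipocyte markers.

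Around the 7 genes, 113 other genes of fuel choice were tested, from lists of fatty acid oxidation, malonyl-CoA control, the pyruvate dehydrogenase complex, mitochondrial carriers, lipid droplets, lipoprotein lipase and uptake, receptors and coactivators, PPAR targets and glucose use. In treadmill against control 0 of 113 passed at an adjusted p under 0.05 (0.0542% of all genes) and 5 had an unadjusted p under 0.05 (9.12%). In catgut group 1 against control 0 of 113 passed (0.0203%) with 16 at an unadjusted p under 0.05 (9.84%). In catgut group 2 against control 1 of 113 passed (0.508%) and 35 had an unadjusted p under 0.05 (16.4%). In catgut group 1 against treadmill 0 of 113 passed (0.0474% of all genes) and 12 had an unadjusted p under 0.05 (6.93%), and in catgut group 2 against treadmill 2 passed (0.237%) with 16 (10.7%). Between the catgut groups 0 passed (0.00677%) and 1 had an unadjusted p under 0.05 (3.26%). DESeq2 called 0, 1, 10, 3, 5 and 0 of the 113 in the same order of comparisons, and limma 0, 0, 1, 0, 2 and 0.

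The genes that passed were few. Pdp1, a phosphatase that switches the pyruvate dehydrogenase complex on and so acts opposite to Pdk4, rose in catgut group 2 against treadmill with 0.78 as log2 fold change (SE 0.12, adjusted p = 0.023), and in catgut group 1 it had 0.72 (SE 0.14, adjusted p = 0.126). None of the other 12 genes on the list of that complex, its kinases and phosphatases passed in any of the 6 comparisons. Lpin1, a lipid phosphatase and coactivator, fell in catgut group 2 against treadmill by 0.88 on the log2 scale (SE 0.15, adjusted p = 0.0421). Slc25a5, an ADP/ATP carrier of the inner mitochondrial membrane, rose in catgut group 2 against control with 0.53 (SE 0.10, adjusted p = 0.0426). These calls moved with the fit: with 1 library left out, the number of the 113 that passed was 0 to 3 in catgut group 2 against treadmill and 0 to 7 against control, the highest without treadmill replicate 2 and without catgut 2 replicate 4, and with the clock level as a covariate it was 0 in both. Of all 14772 genes, 492 passed against control without catgut 2 replicate 4, where the main fit had 75. Against treadmill 25 passed without treadmill replicate 2, where the main fit had 35. Klf15, a transcription factor of muscle lipid use, had 0.70 (SE 0.11, adjusted p = 0.0529) in catgut group 1 and 0.67 (SE 0.13, adjusted p = 0.058) in catgut group 2 against treadmill.

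None of the 18 mitochondrial enzymes of fatty acid oxidation passed in any comparison. In catgut group 2 against control, 18 of 18 had a log2 fold change above 0, with a median of 0.37 where the median of all genes was -0.00495, 11 had an unadjusted p under 0.05 and 0 passed. Mb and Myh7, markers of oxidative muscle fibres, also had higher medians in catgut group 2 than among controls. The slow and fast troponins Tnnt1 and Tnnt3 of the marker list were not compared singly. Mb, which encodes the oxygen store myoglobin, had 4151 to 7030 FPKM among controls (median 5945) and 5536 to 15640 FPKM in catgut group 2 (median 9636). Myh7, the slow myosin heavy chain, had 0.0985 to 144 FPKM and 25.5 to 418 FPKM (log2 fold change 2.12, SE 1.21, adjusted p = 0.409), while Myh1, a fast myosin heavy chain, had 2943 to 4121 FPKM and 1689 to 3275 FPKM. The ranges of all 3 overlapped, and the part of fibre type in the values of the oxidation list was not tested. Acadl, the long-chain acyl-CoA dehydrogenase, had the smallest p, with 0.49 (unadjusted p = 0.00368, adjusted p = 0.124). Against treadmill 17 of 18 lay above 0 with a median of 0.35 (all genes 0.00352), led by Echs1, an enoyl-CoA hydratase, with 0.43 (adjusted p = 0.352). In catgut group 1 the medians were 0.24 against control and 0.20 against treadmill, and in treadmill against control 0.07.

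On the side of lipid supply, Lpl, the lipoprotein lipase that Angptl4 restrains, had a log2 fold change of 1.18 in catgut group 2 against control (adjusted p = 0.136) and 0.99 against treadmill (adjusted p = 0.317). Dgat2, which makes triglyceride for lipid droplets, had 1.03 (adjusted p = 0.0577) and 1.05 (adjusted p = 0.304) in the same comparisons. The 7 adipocyte markers summed to 348.4 to 692.0 FPKM among controls, 326.3 to 650.7 in the treadmill group and 468.7 to 703.5 FPKM in catgut group 2. These sums say little of the 4 markers named next. In control replicate 3, Adipoq, Plin1, Cidec and Cfd had 0.045, 0.0312, 0.0395 and 3.28 FPKM, so Fabp4, Retn and Lep made up most of its sum. Medians of Adipoq (0.73 against 4.10 FPKM), Plin1 (0.27 against 1.41), Cidec (0.34 against 1.06) and Cfd (12.6 against 15.6) were lower in catgut group 2 than among controls. They were also lower than in the treadmill group, and all ranges overlapped. Fabp4 had a log2 fold change of 0.38 in catgut group 2 against treadmill (adjusted p = 0.522), and Retn and Lep were not compared singly. The part of adipocytes in these values was not tested. The median of the 17 lipid droplet genes was 0.19 against control and 0.00114 against treadmill. Among the 17 other textbook PPAR targets, 14 lay above 0 in catgut group 2 against control (median 0.38). Ucp3, Pdk4 and Angptl4 had the opposite sign, while Ucp2 (0.68), Cpt1a (0.44), Cpt1b (0.24) and Plin2 (0.19) lay above 0 like most of the list. None of the 7 genes passed. The list shares genes with the others: Hadha, Acaa2, Decr1 and Cpt2 are also among the oxidation enzymes, and Fabp3, Fabp4, Plin5 and Lpin1 stand on other lists. The smallest p of the list was that of Lpin1 (log2 fold change -0.69, adjusted p = 0.132). In treadmill against control 15 of these 17 lay above 0 (median 0.19), led by Plin5 with 0.85 (adjusted p = 0.598). Pfkfb3, a glycolytic regulator, had -1.82 in catgut group 2 against control (adjusted p = 0.0804) and -1.69 against treadmill (adjusted p = 0.0651).

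Where no gene of a list passed, the gene with the smallest p is given. Between treadmill and control these were Sgk1, a kinase induced by glucocorticoids (log2 fold change 1.22, adjusted p = 0.166), Per2 (-1.41, adjusted p = 0.446), Dld, a subunit of the pyruvate dehydrogenase complex (-0.20, adjusted p = 0.486), Slc25a30 (-0.67) and Foxo4 (-0.38, both adjusted p = 0.513), Gys1, the muscle glycogen synthase (0.35, adjusted p = 0.555), Prkag3, a subunit of AMP-activated protein kinase (-0.62, adjusted p = 0.558), G0s2, an inhibitor of lipolysis (0.99, adjusted p = 0.573), Etfb (0.35, adjusted p = 0.621) and Acsl4 (-0.46, adjusted p = 0.659). For catgut group 1 against treadmill they were Lpin1 (-0.61, adjusted p = 0.292), Slc25a30 (0.89, adjusted p = 0.356), Hk2, a hexokinase (0.44, adjusted p = 0.519), Mgll, the monoglyceride lipase (-0.42, adjusted p = 0.614), Prkaa2, a catalytic subunit of AMP-activated protein kinase (0.49, adjusted p = 0.676), Echs1 (0.31, adjusted p = 0.779) and Lpl (0.58, adjusted p = 0.872). For catgut group 2 against treadmill, Slc25a5 had 0.41 (adjusted p = 0.186) and Prkaa2 0.25 (adjusted p = 0.709).

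The genes with the smallest p in catgut group 1 against control were Sgk1 (log2 fold change 0.93, adjusted p = 0.209), Dgat2 (0.84, adjusted p = 0.303), Klf15 (0.40, adjusted p = 0.38), Gpihbp1, which holds lipoprotein lipase at the vessel wall (0.64), Acadl (0.38) and Slc25a5 (0.34), these 3 at an adjusted p of 0.405, Gbe1 (0.41, adjusted p = 0.425), Cpt2 (0.41, adjusted p = 0.521), Pdp1 (0.36, adjusted p = 0.541) and Prkaa2 (0.31, adjusted p = 0.624). For catgut group 2 against control, Sgk1 had 1.05 (adjusted p = 0.0669), Pdp1 0.41 (adjusted p = 0.243) and Mlycd, which breaks down malonyl-CoA, 0.29 (adjusted p = 0.571). Between the catgut groups Fbxo32 (-0.90), Bhlhe41 (-0.45), Pdk3 (0.76), Pfkfb3 (-0.76), Lpin1 (-0.28), Fitm2 (0.41), Fabp4 (0.26), Slc25a5 (0.18), Eci2 (0.19) and Prkaa2 (-0.24) each had an adjusted p of 1.

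Lists of clock genes and of glucocorticoid-responsive genes were tested in the same way. Against treadmill, Per2 and Cry2 rose in catgut group 1 (log2 fold changes 2.06 and 0.52, adjusted p = 0.0188 and 0.0377). In catgut group 2 they rose by 2.19 and 0.57 (adjusted p = 0.00691 and 0.0152), while Arntl and Npas2 fell, with -2.37 and -2.51 (adjusted p = 0.00494 and 0.0427). Of the glucocorticoid-responsive genes, Tsc22d3 rose in catgut group 1 against treadmill (0.91, adjusted p = 0.00901) and had 1.04 in catgut group 2 (adjusted p = 0.0901). No gene of either list passed against control, where Arntl had -1.09 in catgut group 1 (adjusted p = 0.594) and -1.67 in catgut group 2 (adjusted p = 0.189).

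**Figure D5:**
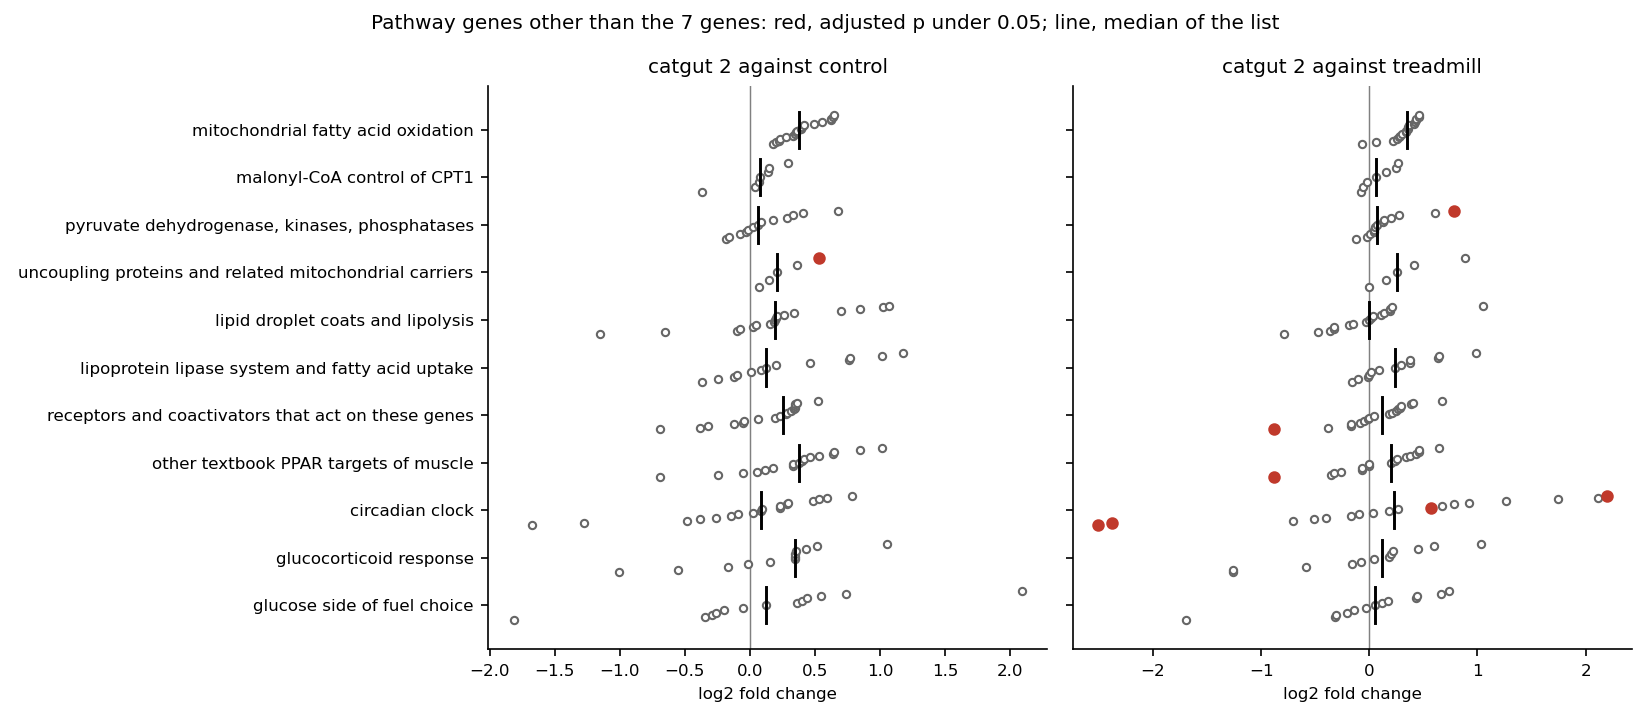
Log2 fold change of each tested gene of 11 pathway lists, the 7 genes left out, in catgut group 2 against control and against treadmill, with a line at each list's median and red points for an adjusted p under 0.05. The points of fatty acid oxidation lie almost wholly above 0 without passing, and the red points against treadmill are Pdp1, Lpin1 (in 2 lists), Per2, Cry2, Arntl and Npas2.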

How the data were processed

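RNA of quadriceps muscle from 24 rats (6 per group) was sequenced, and groups came from the labels. The authors deposited 1 table that holds, for each gene and library, whole-number counts and FPKM. The deposited counts entered the tests unchanged. The values 4 and 8 are the commonest among them after 0, and how the counts were made is not stated. FPKM values were scaled by the authors for gene length and library size. The submitters' processing notes name HISAT2 2.0 and StringTie 1.3.0, and the genome build is not given in the sources used here. The authors' KEGG columns were not used.

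The 7 genes and the gene lists were chosen with earlier results of these data known. The 14772 genes whose mean FPKM reached 0.1 were tested. Each pair of groups was fitted alone with edgeR 4.0.16 (R 4.3.3): TMM scaling, the quasi-likelihood test (two-sided), and p-values adjusted after Benjamini and Hochberg over all genes tested, called at an adjusted p under 0.05. DESeq2 1.42.0 and limma 3.58.1 on log2(FPKM + 1) were alternatives, with others in the closing section. Standard errors of the edgeR fits were derived from the log2 fold change and the F statistic of the test. Intervals are the fold change with 1.96 standard errors to each side, a normal approximation that is narrower than the test itself. For Angptl4 in catgut group 2 against control, the interval was -2.54 to -0.0567 while the quasi-likelihood test gave an unadjusted p of 0.0616. Correlations used log2(FPKM + 1) with group means subtracted and 100000 two-sided permutations within groups, made in Python 3 with NumPy. The fits were tested on simulated data. P-values measure the spread between the libraries of a group, taken as independent. The paper states that cages held 3 rats of the same sex, but the cage of a library is not given, so cage was not modelled. The labels do not say more of how the rats were housed or sampled.

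All 7 genes are described. Of each list, the rule names, per comparison, the genes with an adjusted p under 0.05 or, with none, the gene with the smallest p. The value of Klf15 in catgut group 2 against treadmill, and the correlations with Arntl and Per2, were chosen after the values were seen. Ucp1, Cd36 and Myh4 were not analysed here.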

Additional observations from a re-analysis of the deposited data

Results flagged for a closer look

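Among the 28 sets of 6 values (7 genes in 4 groups), 4 held a library whose gap to its nearest neighbour took up more of the group's range than Dixon's 95% limit for 6 values allows. About 1 in 20 such sets would do so by chance if the values were normally distributed. FPKM were used here without a log, and all 4 libraries were the highest of their group. Ucp2 in catgut 2 replicate 2 was 36.0 FPKM (35.95), with the next highest library at 14.1 FPKM and a gap of 0.706 of the range. Plin2 in control replicate 2 was 23.5 FPKM (23.45), with the next at 11.7 FPKM and a gap of 0.767. Cpt1a in control replicate 4 was 4.45 FPKM, with the next at 3.29 FPKM and a gap of 0.677. Angptl4 in catgut 1 replicate 1 was 13.1 FPKM (13.05), with the next at 6.27 FPKM and a gap of 0.643. No library passed this limit for Ucp3, Pdk4 or Cpt1b.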

How the results depend on the processing

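The alternatives were testing every gene, testing those with a mean FPKM of 1 or more, median ratio size factors, DESeq2, 1 fit over all 4 groups, a replicate block, limma with 2 pseudocounts, counts divided by 4, Y-linked, clock or adipocyte level as covariate and each library left out. Added after the data were seen were fits without control replicates 1 and 2 (the 2 controls with the most Ucp3), without libraries with Alb over 1 FPKM, and with only the libraries that hold or lack Y-linked transcripts.

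Against treadmill, the log2 fold change of Ucp3 moved beyond the spread between replicates under the clock covariate, to -0.0933 in catgut group 1 and -0.80 in catgut group 2, and ranged with 1 library left out from -1.94 to -1.37 and from -2.08 to -1.78. Replicate numbers carry no stated pairing, and same-numbered libraries of different groups did not deviate together (r of -0.447 to 0.273 over 36 pairs, 8 of them over 0.1). Against control, the value of Ucp3 moved beyond the spread with the clock covariate (0.32 in catgut group 1 and 0.20 in catgut group 2), without control replicates 1 and 2 (0.32 and -0.09, and 1.87 in the treadmill group) and with only the Y-linked libraries (0.44 in catgut group 2 and 2.03 in the treadmill group). With the replicate block the value against treadmill was -1.70 and -1.88. For Ucp3 and Pdk4, r was 0.844 to 0.901 with 1 library left out, 0.883 with a pseudocount of 0.1 and 0.869 without the 2 farthest libraries. Of the 7 genes, the 0 called in catgut group 2 against control became 1 with DESeq2 and were 0 to 1 with 1 library left out (1, Cpt1a, without catgut 2 replicate 4), and no other alternative changed this count in the 4 comparisons in which the 7 genes were tested.

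Of the 113 list genes, the 0 called in catgut group 1 against treadmill became 1 with median ratio size factors or the Y-linked covariate, 3 with DESeq2 and 0 to 1 with 1 library left out. The 2 in catgut group 2 against treadmill became 5 with DESeq2, 3 with 1 fit over all 4 groups or the adipocyte covariate, 0 with the replicate block, the clock covariate or either set of libraries split by Y-linked transcripts, 1 without the Alb libraries and 0 to 3 with 1 library left out, with 3 without treadmill replicate 2 and 0 without treadmill replicates 1 or 4 or catgut 2 replicates 3, 5 or 6. The 0 in catgut group 1 against control became 1 with DESeq2. The 1 in catgut group 2 against control became 2 at a mean FPKM of at least 1 or with the Y-linked covariate, 10 with DESeq2, 0 with the replicate block, the clock or adipocyte covariate, without the 2 controls or with either set split by Y-linked transcripts, and 0 to 7 with 1 library left out, 7 without catgut 2 replicate 4 and 0 without control replicates 1, 3, 5 or 6 or any other catgut 2 library. Over all genes DESeq2 called 112, 139, 309, 162, 695 and 8 where edgeR called 8, 7, 35, 3, 75 and 1 (treadmill against control, catgut 1 and 2 against treadmill, catgut 1 and 2 against control, catgut 2 against catgut 1). Without catgut 2 replicate 4, edgeR called 492 of all genes in catgut group 2 against control. The causes were not tested.

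Of 614 fold changes of single genes under alternatives other than leaving out 1 library, 577 moved by less than the spread, and 77 had the other sign, none of them called. Of 480 with 1 library left out, 479 stayed within it with no new call, and 28 had the other sign. The remaining value, Cpt1a without catgut 2 replicate 4, also stayed within the spread but was called. Depth did not limit the 7 genes, whose lowest count was 223.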
